A study of Mus musculus with 28 samples.

Results

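The BCL2 family decides whether a cell keeps or opens its mitochondrial outer membrane. The guardians (Bcl2, Bcl2l1, which encodes BCL-XL, and Mcl1) hold the effectors Bax and Bak1 in check. The effectors oligomerise in the membrane, form pores and release cytochrome c. The BH3-only genes (Bid, Bbc3, which encodes PUMA, Pmaip1, which encodes NOXA, Bcl2l11, which encodes BIM, and Bik) carry stress signals to both of the other classes. Bbc3, Pmaip1 and Bax are textbook p53 targets, and hepatocytes depend on both BCL-XL and MCL1 for survival. Much of the control of these proteins acts on protein stability and localisation, which RNA levels do not show.

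The 10 genes named above, 3 guardians, 2 effectors and 5 BH3-only genes, were listed by name, with no threshold on a measured value. All 10 are among the 35858 gene symbols of the liver and pancreas files (set 2), and all 10 have a row among the 24845 genes of the liver and lung table (set 1). RNA came from bulk mouse tissue of the inducible model of human APOBEC3B (A3B), a cytidine deaminase. A tetracycline-responsive A3B transgene in the Col1a1 locus was switched on by the reverse transactivator rtTA under the ubiquitous CAG promoter when adult mice ate food with 625 ppm doxycycline. The comparisons ask how far these genes differ between A3B mice and control mice in each organ.

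In set 2, 6 A3B livers and 2 control livers, and 6 A3B and 2 control pancreases, were labelled with 10 days of doxycycline. In set 1, 3 A3B livers were labelled with 14 days (mice 23 and 28) or 10 days (mouse 70) and 3 A3B lungs with 10 days, whereas the 3 control livers and 3 control lungs were labelled with 15 days. A3B tissues were labelled as carrying both transgenes (A3B + CAGS-rtTA), except A3B pancreases 44 and 137, labelled A3B alone. Control livers 45 and 168 of set 2, control livers 91 and 92 and control lungs 88 and 91 were labelled with A3B alone, and control lung 87 with the driver alone (CAGs). Control pancreases 45 and 168 and control liver 11 were nevertheless labelled with both transgenes. The group therefore follows the sample titles. The study's own mouse list gives the same groups, but gives no doxycycline for most set 1 controls, so time and feeding cannot be told apart from group there. For the set 2 controls the list gives doxycycline, as the labels and the study's methods do, although a figure legend describes them as having had none. A3B mice were taken at the humane end point.

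Human A3B, read here in set 1 only, ranged from 705 to 1705 TPM (the length-scaled abundance unit of the files) in A3B livers and from 90.6 to 281 TPM in A3B lungs. It stayed between 0.0928 and 0.526 TPM in the 6 controls. Set 2 libraries held 65161064 to 118976013 estimated counts, so that Bcl2l1 rested on 2754 to 9299 counts in A3B livers and Pmaip1 on as few as 7 in a control pancreas. Summed hepatocyte markers were at least 33101 TPM in every set 2 liver and summed acinar markers at least 61543 TPM in every pancreas. The 10 most abundant genes took 59.5 to 62.2% of the counts of the control pancreases and 12 to 20.4% of those of A3B pancreases. TPM therefore compares unlike remainders in the pancreas, and the tests below used TMM scaling (trimmed mean of M values). Under it the median gene differed by 0.09 on the log2 scale against 2.29 with total counts alone. TMM sets typical genes near no change by design, so this median cannot test that choice. Of the other members, Bax shares 915 bases with Gm45808 on its own strand, Bid shares 913 bases with Bcl2l13 on the other strand, and Bcl2 holds the antisense gene D630008O14Rik, so reads there are less certain in the set 1 gene counts.

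Some of the sequences behind the results are shown here, because members differ between samples by which spliced form the reads were assigned to, and Bak1 and Mcl1 serve as examples. Bak1 lies on chromosome 17 (27019810 to 27029009, minus strand, GRCm38). Its main protein-coding transcript in the controls, Bak1-202, joins exon 4 to exon 5 without an insert. Bak1-201 instead holds an extra coding exon of 20 bases (chr17:27021663-27021682), which shifts the reading frame to an early TGA stop at chr17:27021256-27021258. Bak1-204 lacks the first 5 bases of exon 3 (chr17:27022873-27022877) and also meets an early stop. The annotation (GENCODE M21) lists Bak1-201 and Bak1-204 as targets of nonsense-mediated decay, which degrades RNA with premature stops. All stretches below are coding sequence, 5′ to 3′, with the extra exon and its stop codon, or the bases absent from the other form, in capitals.
Bak1-202, exon 4 to 5: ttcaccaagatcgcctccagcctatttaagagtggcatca
Bak1-201, same place: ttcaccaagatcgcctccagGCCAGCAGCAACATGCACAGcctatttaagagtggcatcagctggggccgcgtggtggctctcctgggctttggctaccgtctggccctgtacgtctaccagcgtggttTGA
Bak1-202, exon 2 to 3: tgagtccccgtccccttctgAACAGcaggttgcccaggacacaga
Bak1-204, same place: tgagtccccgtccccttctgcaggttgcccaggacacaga

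Mcl1 (chromosome 3, 95658788 to 95663176, plus strand) has 2 transcripts in the files. Mcl1-202 splices 138 bases (chr3:95658909-95659046) out of the first exon and keeps the reading frame, with 855 coding bases against 993 in Mcl1-201. The bases left out are in capitals.
Mcl1-201, first exon: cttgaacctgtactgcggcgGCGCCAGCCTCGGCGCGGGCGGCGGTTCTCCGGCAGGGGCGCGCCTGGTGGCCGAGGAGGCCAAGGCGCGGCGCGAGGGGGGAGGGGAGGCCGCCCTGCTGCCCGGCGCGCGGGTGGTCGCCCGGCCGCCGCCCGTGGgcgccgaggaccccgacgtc
Mcl1-202, same place: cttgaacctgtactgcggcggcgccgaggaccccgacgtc

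Bax and Bcl2l1, an effector and a guardian whose ratio is described below and whose windows held a motif match, are shown with the 250 bases before their annotated starts (RefSeq, GRCm38.p6, minus strand for both). RefSeq windows existed for 8 of the 10 members (13 windows, all but Pmaip1 and Bik). The p53 half-site consensus, searched on both strands, matched 1 of the 13 windows, that of Bax, and 7.13% of all 32851 windows. The NF-kB consensus matched 2, 1 of Bbc3 and 1 of the 3 of Bcl2l1, and 7.25% of all windows. The STAT motif TTCNNNGAA and the interferon motif ISRE (GAAA, any 2 bases, GAAA) matched no member window and 7.02% and 2.98% of all windows, and the E-box CACGTG matched 2 (Bax and Bbc3) and 6.02%. A match describes letters, not a bound site. Capitals mark the p53 half-site match of Bax and the NF-kB match of Bcl2l1.
Bax, chr7:45466899-45467148: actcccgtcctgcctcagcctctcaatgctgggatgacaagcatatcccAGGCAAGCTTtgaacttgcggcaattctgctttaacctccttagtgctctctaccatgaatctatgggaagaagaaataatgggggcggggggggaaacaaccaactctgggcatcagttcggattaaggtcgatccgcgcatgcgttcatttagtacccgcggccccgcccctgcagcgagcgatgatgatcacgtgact
Bcl2l1, chr2:152830718-152830967: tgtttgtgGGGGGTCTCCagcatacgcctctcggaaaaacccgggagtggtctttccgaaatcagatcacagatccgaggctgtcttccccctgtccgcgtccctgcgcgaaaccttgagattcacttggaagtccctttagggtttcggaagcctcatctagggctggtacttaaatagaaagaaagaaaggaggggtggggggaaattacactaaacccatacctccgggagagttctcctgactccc

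The largest fitted log2 fold changes of members were in the pancreas, with no test of the difference from lung. Of the 10 members, 6 were higher in A3B pancreases and 0 were lower at an adjusted p under 0.05 (edgeR quasi-likelihood test, Benjamini-Hochberg adjustment over 19123 genes), namely 1 guardian (Bcl2l1), both effectors and 3 BH3-only genes (Bbc3, Bcl2l11 and Bid). Over all genes tested, 17% were higher and 14.9% lower (31.9% in all). The median log2 fold change of the 10 members was 1.33, and that of all genes was 0.09. With the counts of protein-coding transcripts alone, 3 members (Bcl2l1, Bbc3 and Bcl2l11) were higher, where 17.4% of all genes were. Fewer members were called without control pancreas 45, which left 1 control. The median log2 fold change of the 10 members was then 1.02, and that of all genes 0.17.

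Bcl2l1, the guardian that binds both effectors and most BH3-only proteins, measured 3.05 and 2.94 TPM in the control pancreases. The 6 A3B pancreases ranged from 87.3 TPM through a median of 112 to 152 TPM. In TPM no A3B sample came near the controls. In TMM-scaled CPM (library-scaled counts) the gap was smaller. A3B pancreases stood at 99 to 207 there, against 31.4 and 12.7 in controls 45 and 168, without overlap. On the TMM scale the log2 fold change was 2.81 (SE 0.46, adjusted p 0.00151 with edgeR), and the call held in all 16 alternatives, with log2 fold changes from 2.31 to 5.21. Its main transcript, Bcl2l1-201, gave 77.5 and 92.5% of its TPM in the controls and 49.3 to 59.1% in A3B pancreases, where Bcl2l1-202, another protein-coding form, made up 23.3 to 34%.

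Mcl1, the short-lived guardian, did not pass the test. The TMM-scaled log2 fold change was -0.10 (SE 0.25, adjusted p 0.79 with edgeR), whereas total counts alone gave 2.03 and log2(TPM + 1) gave 2.13, both called higher. With total counts alone 70.5% of all genes were called higher, and with log2(TPM + 1) 83.9%. In TPM the controls stood at 12.7 and 39.4 and A3B pancreases at 82, 104 (median) and 125. Mcl1 was thus the most abundant member of control pancreas (26 ± 18.9 TPM, mean ± SD, n = 2), where it overlapped Bax (12.5 ± 4.45). In A3B pancreases Bcl2l1 (118 ± 25.6, n = 6), Mcl1 (103 ± 18.6) and Bax (102 ± 22.6) overlapped at the top. Bcl2, the founding guardian, was the least abundant member of A3B pancreases (median 1.66 TPM, range 1.06 to 3.95) and its log2 fold change of -0.47 (SE 0.40) did not pass, with 1.57 by total counts alone.

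**Figure D1:**
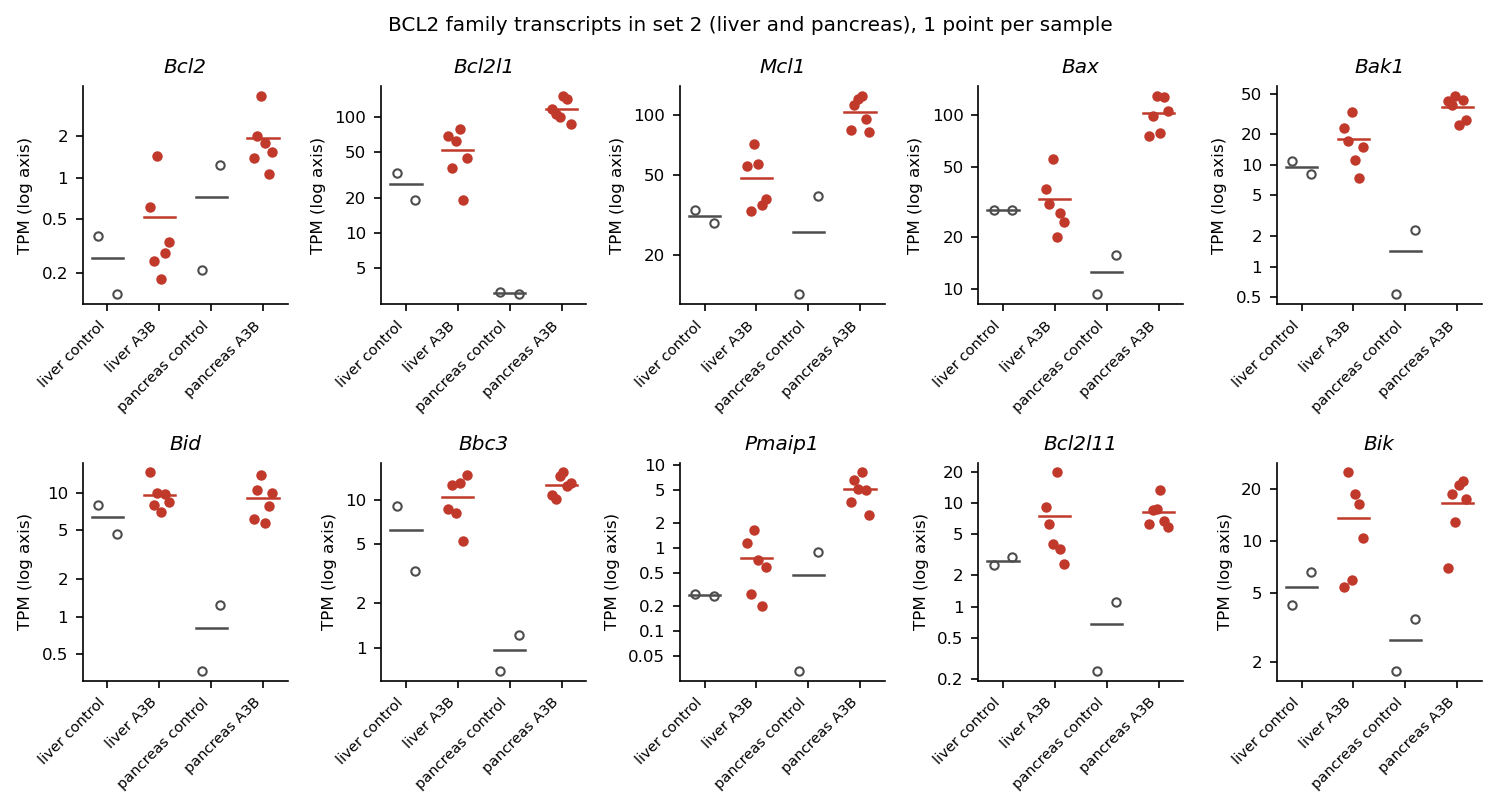
TPM (log axis) of the 10 members in each set 2 sample, with controls as open and A3B samples as filled points and lines at the group means. In TPM, Bcl2l1 shows the widest gap in the pancreas, from 3.05 in the higher control to 87.3 in the lowest A3B sample. This rank does not hold in TMM-scaled CPM (not drawn). There the Bcl2l1 gap is smaller, from 31.4 to 99, and that of Bak1, from 8.18 to 26.6, is slightly wider in proportion. In the liver the arms overlap in TPM for all 10 members.

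Both effectors were higher in A3B pancreases. Bak1 measured 0.535 and 2.28 TPM in controls, and 24.3, 40.6 (median) and 47.4 TPM in A3B samples, without overlap. Its log2 fold change was 2.51 (SE 0.31, adjusted p 0.00039 with edgeR), the smallest p of the 10 members. Bax, the effector that moves from the cytosol to the membrane, measured 9.32 and 15.6 TPM in controls and 76.2, 102 and 129 TPM in A3B samples, again without overlap. After scaling its log2 fold change was 0.75 (SE 0.26, adjusted p 0.048 with edgeR). The Bax call was lost in 10 of 16 alternatives, with adjusted p up to 0.243, among them each of 6 in which a single pancreas (A3B 53, 49, 137 or 153, or control 45 or 168) was left out.

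The Bak1 result depended on which of its 4 transcripts were counted. Bak1-202, the form shown above without the insert, made up 68.6 and 68.8% of Bak1 TPM in the control pancreases and 7.7 to 26.7% in A3B pancreases. Bak1-204 was at 0 in both controls and made up 23.7 to 43.8% in A3B samples, and Bak1-201 went from 31.4 and 1.03% to between 24.2 and 43.4%. Both forms with an early stop thus took 57.4 to 73.3% of Bak1 TPM in A3B pancreases against 1.03 and 31.4% in controls. Counted over protein-coding transcripts alone, Bak1 had a log2 fold change of 0.68 (adjusted p 0.158 with edgeR).

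In the livers of set 2 the Bak1-202 share was also lower in A3B samples. It made up 61.9 and 52.4% in control livers, and 1.19 to 28% in A3B livers, and the early-stop forms together 30.3 and 47.6% against 54.9 to 87.2%. The highest share, 87.2%, was that of A3B liver 48, which also had the lowest Bcl2l1 (19.1 TPM). Its endothelial markers summed to 6.02 TPM against 34.1 to 57.7 TPM in the other A3B livers, and its macrophage markers to 37.7 TPM against 364 and 424 TPM in the control livers, and their part in its values was not tested. Counted over coding transcripts, liver Bak1 had a log2 fold change of -0.93 (adjusted p 0.289 with edgeR), opposite in sign to 0.23 with all transcripts. The control pancreas shares rest on 95 and 345 estimated counts. These forms share most of their bases, so their shares are the estimates of kallisto and not counts of junction reads. Ggnbp1, which spans all of Bak1 on the other strand, stood at 8.91 to 11.9 TPM in control and 1.97 to 6.88 TPM in A3B pancreases, and its part in the Bak1 values was not tested.

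**Figure D2:**
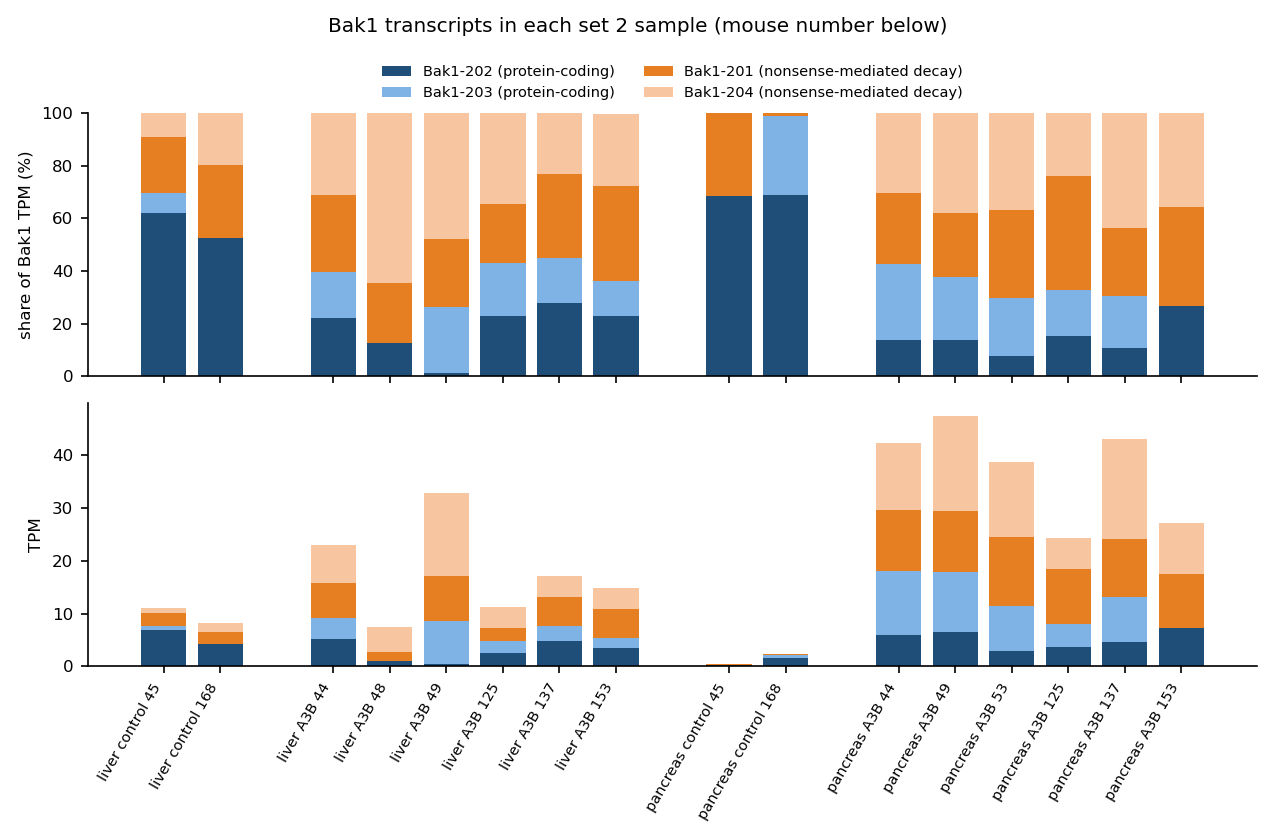
Bak1 transcripts in each set 2 sample, as shares of Bak1 TPM in percent (top) and in TPM (bottom), with mouse numbers below the bars. The protein-coding form Bak1-202 (dark blue) takes at least 52.4% in the 4 controls and at most 28% in the 12 A3B samples, where both early-stop forms (orange) take at least 54.9%.

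Among the BH3-only genes, Bbc3 measured 0.702 and 1.23 TPM in control pancreases and 10.2, 12.7 (median) and 15.3 TPM in A3B pancreases, without overlap. Its log2 fold change was 1.44 (SE 0.32, adjusted p 0.00717 with edgeR), called in all 16 alternatives. Bcl2l11, which binds all guardians, measured 0.239 and 1.11 TPM in controls and 5.84, 7.63 and 13.3 TPM in A3B samples, with a log2 fold change of 1.38 (adjusted p 0.0114 with edgeR). Bid, which caspase-8 cleaves into its active form, measured 0.363 and 1.24 TPM in controls and 5.8, 8.99 and 14 TPM in A3B samples. Its log2 fold change was 1.29 (adjusted p 0.0155 with edgeR), and 0.107 was the adjusted p without control 45. The Bid transcript listed for nonsense-mediated decay made up 81 and 31.8% of Bid TPM in the controls, at 59 and 210 estimated counts, and at most 5.67% in A3B pancreases.

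Pmaip1, whose product targets MCL1 for degradation, differed between the controls themselves. It stood at 0.0329 TPM in control 45 (7 counts) and 0.905 TPM in control 168 (198 counts), against 2.54, 5.09 and 8.21 TPM in A3B pancreases. In controls 45 and 168, T cell markers summed to 0.364 and 38 TPM, B and plasma cell markers to 4.4 and 203 TPM, and adipocyte markers to 51.3 and 637 TPM. Hepatocyte markers went the other way, at 67.6 and 25.9 TPM. Their part in the Pmaip1 values was not tested. The Pmaip1 log2 fold change of 1.66 (SE 0.78) did not pass the test (adjusted p 0.132 with edgeR). It was 0.83 without control 45 and 4.43 without control 168, where it passed, as it did with DESeq2, with total counts alone and with log2(TPM + 1). Bik, a BH3-only protein of the endoplasmic reticulum, had 1.78 and 3.56 TPM in controls, 6.95 to 22.2 TPM in A3B samples and a log2 fold change of 0.45 (SE 0.43, adjusted p 0.455 with edgeR). After TMM scaling all 6 A3B pancreases lay above both controls for 6 members, where 25.1% of all genes did so.

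Markers of other cells moved with these differences. Of 7 macrophage markers, 5 were higher in A3B pancreases, where their sum was 1887 to 5568 TPM against 48.4 and 552 TPM in controls. Of 6 fibroblast markers, 5 were higher, with sums of 963 to 1486 TPM against 39.6 and 172 TPM, and 3 of 6 ductal markers were higher, with sums of 1194 to 2948 TPM against 53.8 and 92.7 TPM. Endothelial sums were 63.2 to 101 TPM against 8.91 and 21.8 TPM, with 1 of 5 markers higher, and endocrine sums 3758 to 13293 TPM against 3434 and 3509 TPM, with 2 of 7 markers lower after TMM scaling. Hepatocyte sums were 115 to 965 TPM against 25.9 and 67.6 TPM, and alveolar and airway sums 9.58 to 109 TPM against 5.96 and 9.02 TPM, with no marker of either list called higher. Of 9 acinar markers, 8 were lower, and their sums were 61543 to 164783 TPM against 215187 and 231577 TPM. None of these markers was at 0 in either group. Their part in the member differences was not tested, and in bulk tissue fewer cells of a type cannot be told apart from less RNA per cell.

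In the liver of set 2 no member passed the test, with 0 of 10 higher and 0 lower in edgeR, 0 at an unadjusted p under 0.05 and 0 with DESeq2. Over all 17365 genes tested, 3.66% were called (1.26% higher and 2.41% lower), and 22.9% had an unadjusted p under 0.05. Bcl2l1 had the smallest p. It measured 33 and 19.3 TPM in controls and 19.1, 53.2 (median) and 79.4 TPM in A3B livers, and 5 of 6 A3B livers lay above both controls in TPM, and 4 of 6 on the TMM scale of the test. The log2 fold change was 0.67 (SE 0.40, adjusted p 0.35 with edgeR), with 0.122 to 0.848 as the range of the adjusted p over 15 alternatives.

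The remaining liver members were spread widely within the A3B group. Bik ranged from 5.43 to 24.8 TPM against 4.27 and 6.62 TPM in controls, with a log2 fold change of 1.09 (SE 0.75). Bcl2l11 ranged from 2.58 TPM in mouse 153 to 19.9 TPM in mouse 125 against 2.5 and 3 TPM, and its log2 fold change was 0.66 (SE 0.58). Pmaip1 stayed under 2 TPM in every set 2 liver and rested on 31 to 244 counts. The effectors gave 0.23 (Bak1, SE 0.37) and -0.15 (Bax, SE 0.35), and Mcl1 gave 0.05 (SE 0.32). Summed hepatocyte markers were lower in all A3B livers, at 33101 to 80034 TPM against 87004 and 137402 TPM, and neutrophil markers higher, at 6.05 to 102 TPM against 3.76 and 5.34 TPM, although no marker of either list passed the test. Their part in the liver values, the p53 targets below included, was not tested. With 2 controls and errors of this size, the data do not show that these genes were alike in both arms.

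The share of each Mcl1 form differed among the livers but not among the pancreases, and these shares were not tested. Mcl1-202, the form that lacks the 138 bases shown above, made up 21.8, 23.3, 16.5, 32 and 24.6% of Mcl1 TPM in 5 A3B livers (mice 44, 137, 49, 125 and 153) and was at 0 in A3B liver 48. It made up 7.28 and 0% in control livers 45 and 168. In all 8 pancreases it was at 0, although Mcl1 rested there on 3513 to 31478 counts. Both forms encode protein, so the sum over coding transcripts did not change for Mcl1.

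The pancreas effect exceeded the liver effect for 2 members, tested as an interaction in 1 edgeR model over the 16 samples. The difference of log2 fold changes was 2.46 for Bak1 (SE 0.49, adjusted p 0.00735) and 2.31 for Bcl2l1 (SE 0.58, adjusted p 0.0199). Of all 19908 genes, 6.87% were called in this direction and 5.03% in the other. The calls were the same 2 with mouse number as a replicate block. Bcl2l1 was lost without control liver 45 or without control pancreas 168, and Bak1 without control pancreas 45. Bid (1.24, adjusted p 0.0895), Bbc3 (1.14, 0.158) and Bax (1.07, 0.115) did not pass.

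**Figure D3:**
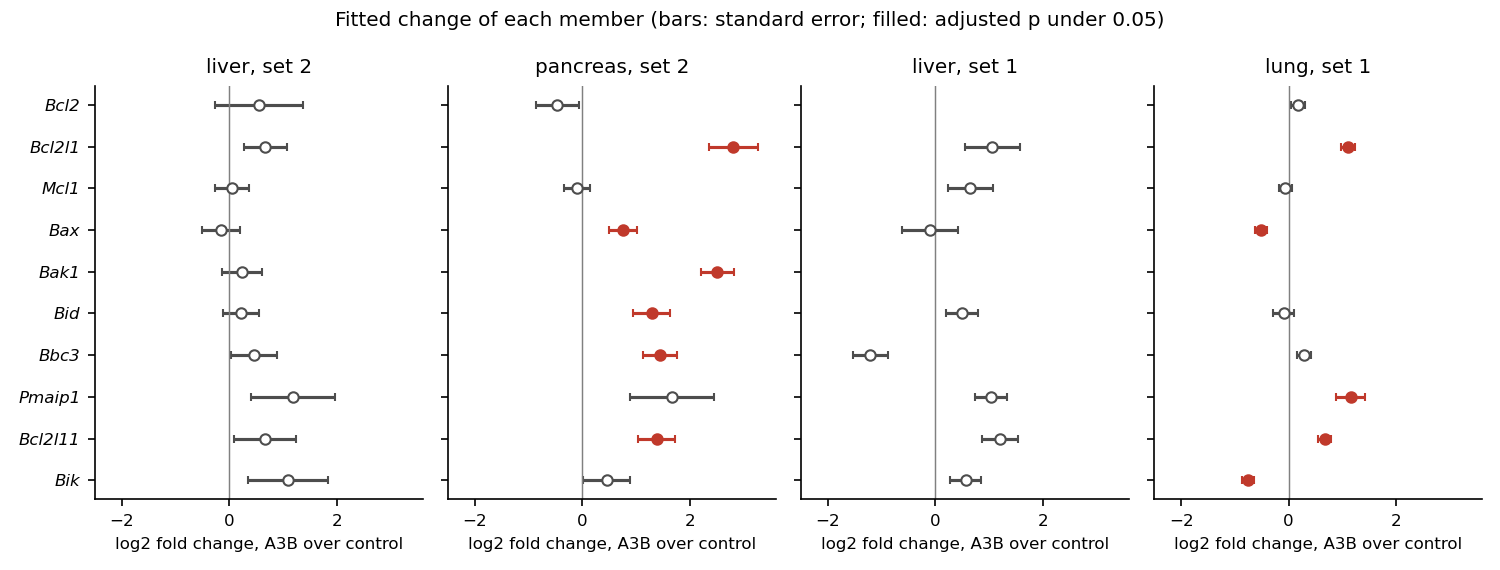
Fitted log2 fold change of each member, A3B over control, in the 4 comparisons, with bars for the standard error and filled points for an adjusted p under 0.05. Filled points appear for 6 members in pancreas and 5 in lung and for 0 in either liver set, where the bars are wider than in lung.

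In set 1 the values are TPM per gene with unknown depth, tested with limma on log2(TPM + 1) where the average over the samples fitted reached 1 TPM. Bak1 was listed at 0 in all 12 samples, including the lungs, and gives no value there. Ggnbp1, which covers it on the other strand, had 0.328 to 8.05 TPM. Bcl2 was below the minimum in the livers, so 8 members were tested in liver and 9 in lung.

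Lung gave changes in both directions. Of the 9 members tested, 3 were higher and 2 lower in A3B lungs at an adjusted p under 0.05, where 16.1% of the 13651 genes were higher and 20.8% lower, 36.8% together. Bcl2l1 was again among the higher. It measured 23.3, 18.2 and 24.9 TPM in control lungs 87, 88 and 91 and 48.5, 52.1 and 45.1 TPM in A3B lungs 69, 70 and 74, without overlap. Its log2 fold change was 1.11 (SE 0.13, adjusted p 0.00356 with limma), called in all 9 alternatives. Bcl2l11, Bax and Bik were also called in all 9.

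Bcl2l11 measured 9.73, 12.6 and 11.4 TPM in control lungs and 19.7, 18.3 and 17.1 TPM in A3B lungs, all above the controls, with a log2 fold change of 0.67 (SE 0.12, adjusted p 0.00804 with limma). Pmaip1 was the most abundant member of the lung, at 363, 164 and 235 TPM in controls and 552, 571 and 505 TPM in A3B lungs. The fitted difference was 1.16 on the log2 scale (SE 0.27, adjusted p 0.0188 with limma). This call was lost without control 91, A3B 69 or A3B 70, with an adjusted p up to 0.0629.

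Bax went down in the lung, from 161, 143 and 181 TPM in controls to 115, 113 and 112 TPM in A3B lungs, without overlap. The log2 fold change was -0.51 (SE 0.11, adjusted p 0.0136 with limma). Bik went from 9.93, 12.3 and 10.8 TPM to 5.61, 6.2 and 6.54 TPM, with a log2 fold change of -0.75 (SE 0.11, adjusted p 0.0055 with limma). Mcl1 (168 ± 15.7 TPM in controls and 161 ± 16.7 TPM in A3B lungs, mean ± SD, n = 3 each), Bid, Bcl2 and Bbc3 did not pass. All A3B lungs lay on one side of all controls for 5 of 9 members, and 53.9% of all genes did so. Of 5 endothelial markers 2 were lower in A3B lungs, where they summed to 621 to 843 TPM against 851 to 938 TPM. Of 7 macrophage markers 1 was lower, and their sums were 1063 to 1235 TPM in A3B lungs against 1342 to 1423 TPM in controls, without overlap. Summed hepatocyte markers, of which none was at 0, ranged from 3.95 to 464 TPM over the 6 lungs and overlapped between the arms. Endocrine sums were 2.69 to 4.17 TPM in A3B lungs against 1.11 to 1.91 TPM, with 2 of 7 markers at 0 in the A3B group and 3 in the controls. The part of any of these in the results was not tested.

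**Figure D4:**
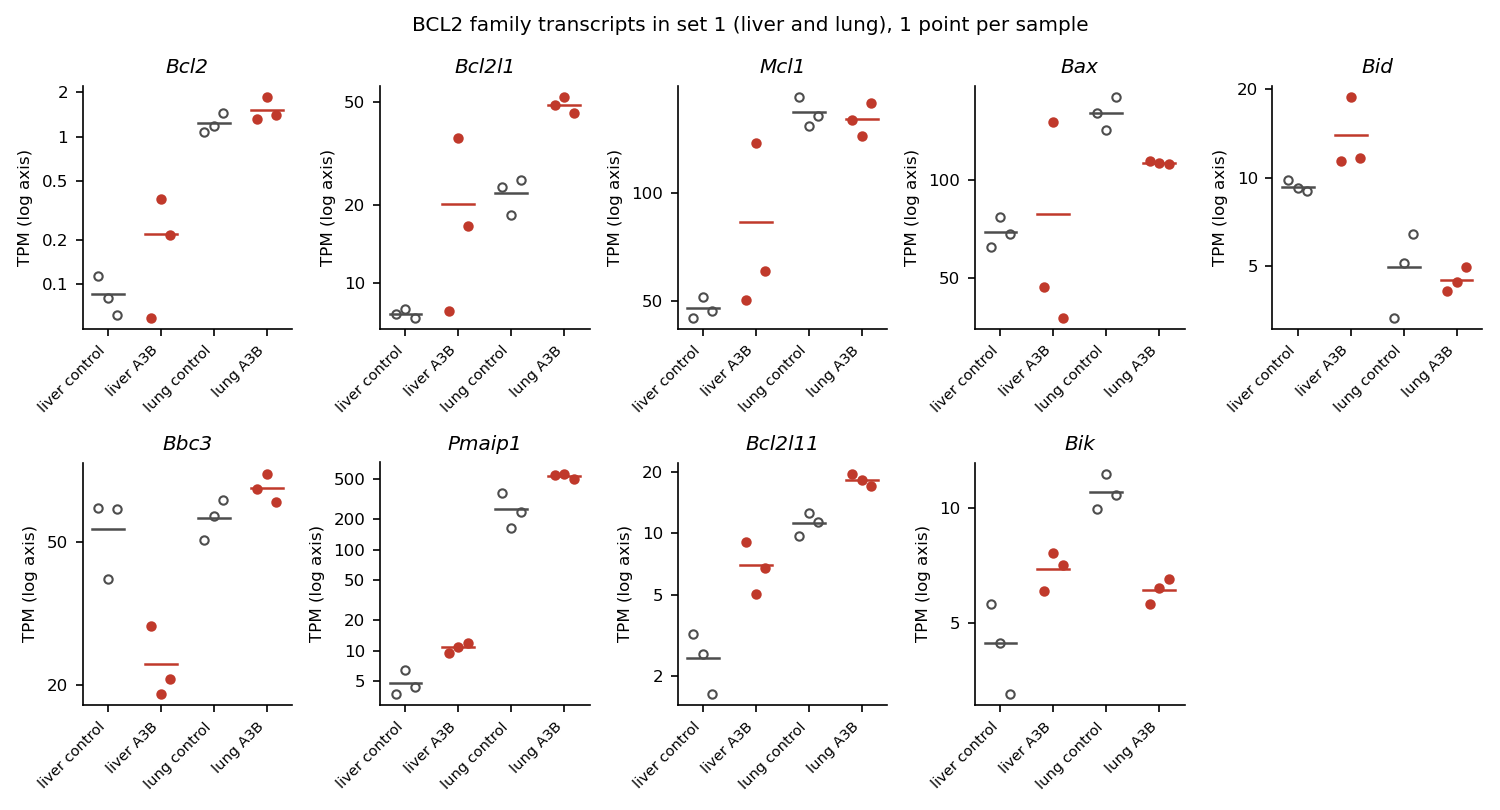
TPM (log axis) of 9 members in each set 1 sample, with controls as open and A3B samples as filled points and lines at the group means. Bak1, listed at 0 throughout, is left out. In lung Bcl2l1, Pmaip1 and Bcl2l11 lie higher and Bax and Bik lower in A3B samples, and in liver Bbc3 lies lower, at 18.8 to 29.2 TPM against 39.4 to 62.5 TPM.

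In the livers of set 1 no member passed with limma, although 3 of 8 had an unadjusted p under 0.05, where 32.6% of the 11507 genes did. Over all genes 7.93% were called (6.07% higher and 1.86% lower). Bbc3 measured 62.5, 39.4 and 61.8 TPM in control livers 11, 91 and 92 and 29.2, 18.8 and 20.7 TPM in A3B livers 23, 28 and 70. All A3B livers lay below all controls. The fitted log2 difference was -1.21 (SE 0.33, adjusted p 0.0609 with limma), and passed only after median-ratio rescaling (adjusted p 0.0438; 0.0438 to 0.257 over 9 alternatives).

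Bcl2l11 measured 3.19, 2.54 and 1.62 TPM in controls and 9.1, 5.05 and 6.73 TPM in A3B livers, with a log2 fold change of 1.20 (adjusted p 0.0617 with limma). Pmaip1 measured 3.71, 6.37 and 4.33 TPM and 9.55, 10.9 and 12 TPM, with a log2 fold change of 1.04 (adjusted p 0.0663 with limma). Bcl2l1 was level in controls at 7.54, 7.9 and 7.32 TPM, but spread over 7.77, 36.2 and 16.5 TPM in A3B livers 23, 28 and 70. A3B liver 28 was also the highest for Mcl1 (138 TPM against 50.4 and 60.7 TPM) and Bax (151 TPM against 46.7 and 37.6 TPM). Its adipocyte markers summed to 215 TPM against 39.6 and 30.6 TPM in A3B livers 23 and 70, its neutrophil markers to 128 TPM against 45.5 and 13.7 TPM, and its hepatocyte markers to 2514 TPM against 4066 and 4663 TPM. Their part in its values was not tested. Adipocyte sums of all 3 A3B livers lay above those of the controls (14.7 to 19.3 TPM), as did acinar sums, at 9.54 to 30.2 TPM against 1.53 to 2.98 TPM. Of the adipocyte markers 2 of 5 (Cfd and Lep) were at 0 in both groups, and of the acinar markers 6 of 9 were at 0 in the controls and 2 in the A3B livers. A3B liver 70 stood apart in T cell markers, at 87.3 TPM against 7.91 to 15.6 TPM in controls. A3B liver 23 was lowest in ductal markers (5.97 TPM against 26.7 to 33.6 TPM in controls) and macrophage markers (316 TPM against 553 to 806 TPM). The part of any of these markers in the liver differences was not tested. Groups did not overlap for 5 of 8 members, where 38.9% of all genes had that property.

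The lung and liver effects differed for 2 of 8 members in 1 limma model over the 12 samples of set 1. For Bbc3 the lung effect was higher by 1.49 on the log2 scale (SE 0.33, adjusted p 0.02), since Bbc3 stood at 50.6 to 65.6 TPM in control and 64.8 to 77.9 TPM in A3B lungs. For Bik it was lower, with a difference of -1.32 (SE 0.27, adjusted p 0.015). Of 13477 genes, 1.94% were called with a higher and 8.81% with a lower lung effect. Bbc3 gave 0.46 (SE 0.43) in the set 2 livers, against -1.21 in the set 1 livers. The sets were quantified separately, so the difference between them was not tested.

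Ratios between members do not depend on library scaling, since both genes come from the same sample, and they are given as log2 of the TPM ratio with no test. Bax to Bcl2l1, an effector over its guardian, was 2.01 ± 0.56 (mean ± SD, n = 2) in control and -0.20 ± 0.50 (n = 6) in A3B pancreases, without overlap. In lung it was 2.88 ± 0.09 in controls and 1.22 ± 0.10 in A3B samples (n = 3 each), and in set 1 livers 3.19 ± 0.12 and 1.95 ± 0.71, in both cases with all A3B samples below all controls. In set 2 livers it was 0.18 ± 0.55 and -0.60 ± 0.85, with overlap.

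Bbc3 to Bcl2l1, which has the same denominator and so is not a separate result, followed a like pattern. It was -1.69 ± 0.61 in control and -3.20 ± 0.34 in A3B pancreases, 2.82 ± 0.43 and 0.43 ± 1.43 in set 1 livers, and 1.41 ± 0.29 and 0.55 ± 0.03 in lungs, without overlap in each, and -2.20 ± 0.49 and -2.26 ± 0.67 in set 2 livers, with overlap. Ratios to Mcl1 in the pancreas differed by member. Bax to Mcl1 overlapped, at -0.89 ± 0.63 in controls and -0.03 ± 0.40 in A3B samples. Bak1 to Mcl1 was -4.34 ± 0.32 in controls and -1.50 ± 0.48 in A3B pancreases, and over protein-coding transcripts alone, a choice made after seeing the data, it was -4.62 ± 0.70 and -3.10 ± 0.62, still without overlap. Bcl2l11 to Mcl1 was -5.44 ± 0.41 and -3.69 ± 0.23. Pmaip1 to Mcl1 ranged from -8.59 to -5.44 in control and from -5.01 to -3.93 in A3B pancreases. In lung Pmaip1 to Mcl1 was 0.53 ± 0.44 in controls and 1.76 ± 0.24 in A3B samples. Bak1 to Bcl2l1 overlapped in the pancreas, at -1.44 ± 1.52 and -1.68 ± 0.53, and at -1.72 ± 1.89 and -3.15 ± 0.64 over protein-coding transcripts. In set 2 livers it overlapped over all transcripts, at -1.41 ± 0.24 and -1.55 ± 0.67. Over protein-coding transcripts it was -1.92 ± 0.05 and -3.09 ± 0.83 there, with all A3B livers below both controls.

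**Figure D5:**
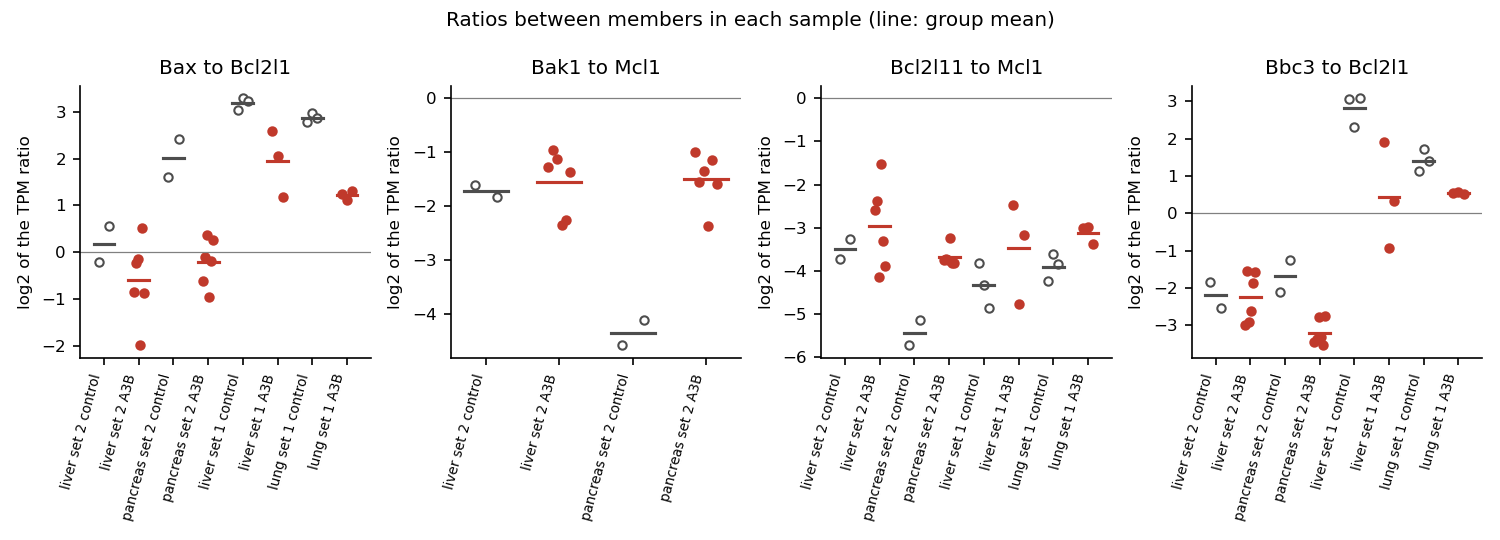
Log2 of the TPM ratio for 4 pairs of members in each sample, with controls as open and A3B samples as filled points and lines at the group means. Bak1 to Mcl1 has no set 1 values because Bak1 is listed at 0 there. Bax to Bcl2l1 lies at 1.61 and 2.41 in control pancreases and at most at 0.37 in A3B pancreases.

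The wider cell death machinery was read from 10 lists of 77 genes, of which 76 were tested in pancreas. There 25 were higher and 8 lower in A3B pancreases (edgeR, adjusted p under 0.05), and their median log2 fold change was 0.40, where 17% of all genes were higher and 14.9% lower with a median of 0.09. With total counts alone 70 of 76 were higher and 1 lower, where 70.5% of all genes were higher. In liver set 2 the counts were 3 and 1 of 75 (1.26 and 2.41% of all genes), with 8 and 4 of 77 by DESeq2 (7.19 and 5.92%) and 7 and 0 of 75 by total counts alone (5.06 and 1.39%). In liver set 1 they were 7 and 1 of 66 (6.07 and 1.86%), and in lung 18 and 16 of 70 (16.1 and 20.8%).

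Downstream of the effectors, Apaf1, the scaffold of the apoptosome, was higher in A3B pancreases with a log2 fold change of 1.60 (SE 0.24). Htra2 (-1.66), Cycs, which encodes cytochrome c (-1.04), Diablo and Endog were lower after TMM scaling, so 1 of 9 mitochondrial factors was higher and 4 lower. The direction of these 4 turned with total counts alone, under which Cycs gave 1.26 and 8 of the 9, all but Htra2, were called higher. In TPM Cycs stood at 3.49 and 7.23 in control and 8.63 to 15.3 in A3B pancreases, and Htra2 at 10.3 and 14.8 and at 12.8 to 30.8. Casp9, the initiator caspase of the apoptosome, was lower in A3B pancreases on both scales. It measured 81.3 and 133 TPM in control pancreases and 6.97 to 37.4 TPM in A3B pancreases, and its log2 fold change was -4.81 (SE 0.61, adjusted p 0.000609 with edgeR). Of 9 acinar markers 8 were also lower there, and their part in the Casp9 values was not tested. Casp8, which cleaves Bid (1.27), and Casp6 (0.83) were higher. In lung Casp6 was lower (-0.44, SE 0.10, adjusted p 0.0149 with limma).

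Of 11 genes listed as death receptors and adaptors, 4 were higher in A3B pancreases. They were the death receptors Tnfrsf1a (2.34) and Tnfrsf10b (1.51), Tnfrsf1b (2.39), a TNF receptor without a death domain, and the adaptor kinase Ripk1 (1.15), where 17% of all genes were higher. Among inhibitors of apoptosis, Birc3 was higher (1.90) and Birc2 lower (-0.63) after TMM scaling, whereas in TPM Birc2 stood at 3.37 and 12.3 in control and 15.1 to 31.3 in A3B pancreases and was called higher with total counts alone. In lung 3 of 10 genes of the death receptor list were higher and 3 lower (16.1 and 20.8% of all genes), among them Tnfrsf10b (2.35) and the adaptors Tradd (-0.71) and Fadd (-0.69), and Birc3 was higher (0.89). In neither liver set did a gene of these lists pass in the main tests (edgeR and limma). In set 2 livers 1 inhibitor of apoptosis was called higher with DESeq2 and 1 with total counts alone, and in set 1 livers 1 gene of the death receptor list was called lower after median-ratio rescaling.

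Bmf, a further BH3-only gene, differed in direction between organs. It measured 0.367 and 1.53 TPM in control and 4.76 to 22.6 TPM in A3B pancreases (log2 fold change 2.02, SE 0.52, adjusted p 0.016 with edgeR). In set 1 livers it went from 13.7 to 19.8 TPM in controls to 1.75 to 2.86 TPM in A3B samples (log2 fold change -2.44, SE 0.30, adjusted p 0.013 with limma). In set 2 livers its log2 fold change was -2.37 (SE 0.63, adjusted p 0.0675 with edgeR). The interaction tests gave 4.55 for pancreas minus liver (adjusted p 0.00984 with edgeR) and 2.53 for lung minus liver (adjusted p 0.00262 with limma). The A1 guardians Bcl2a1a, Bcl2a1b and Bcl2a1d are near-identical copies whose reads cannot be divided with certainty. Of these, only Bcl2a1d in lung passed (-0.88, adjusted p 0.0317 with limma).

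Among p53 targets outside the family, 12 of 15 were higher and 0 lower in A3B pancreases, where 17% of all genes were higher, with Btg2 (2.98), Sesn2, Trp53inp1 (2.56) and Tnfrsf10b (1.51) at the smallest p. In set 2 livers 3 of 15 were higher, where 1.26% of all genes were, namely Cdkn1a (4.61, SE 0.73, adjusted p 0.014 with edgeR), Mdm2 (1.58) and Trp53inp1 (2.65). DESeq2 called 6 of the 15, where it called 7.19% of all genes higher. In set 1 livers 5 of 11 were higher (6.07% of all genes), and in lung 6 of 12 were higher and 2 lower (16.1 and 20.8%). Cdkn1a, the cell cycle inhibitor, measured 1.89 and 8.56 TPM in control and 57 to 281 TPM in A3B livers of set 2, while the p53 target members Bbc3, Pmaip1 and Bax did not pass there. Trp53 itself did not pass in any of the 4 comparisons. Other factors named as regulators of the family that passed in pancreas were Rela (1.46), Stat3 (1.59) and Nfkb1 (0.96), higher, and Atf4 (-1.30), lower. Among regulators of MCL1 and BH3 proteins, Ywhaz (1.45) was higher and Mtch2 (-0.76) lower in pancreas. Both lower calls are those after TMM scaling, and with total counts alone Atf4 gave 1.01 and Mtch2 1.49, both called higher. Dynll2 (-1.25) was lower in set 2 livers, a call that was lost with total counts alone (-0.77, adjusted p 0.148) and with limma on log2(TPM + 1) (-0.89, adjusted p 0.155).

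The genes closest in pattern to Bak1, the member with the smallest p in pancreas, over the 16 set 2 samples were Spats2, Irf7, Zwint, Stam2 and Cfl1, with Pearson r of log2 CPM (library-scaled counts) from 0.942 to 0.957 among 19908 genes. Within the 8 livers alone these r were 0.526 to 0.94. Among the genes closest to Bcl2l1, the member with the smallest p in liver, were Ptk2, Phc2, Zswim4 and Efhd2, with r from 0.922 to 0.938. The 16 samples come from 2 organs and 2 arms, which these r do not separate, so they are descriptions.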

How the data were processed

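Total RNA libraries (stranded, paired-end) were deposited for 28 samples. For set 2 the authors ran kallisto and deposited estimated counts and TPM per transcript. Estimated counts were summed per gene through GENCODE M21 (GRCm38, the labelled build mm10), which matched 116640 of 119414 transcripts (97.7%), and rounded to whole numbers. For set 1 the authors deposited TPM per gene, made from a read-count matrix over alignments that the column names show as duplicate-removed, and 4 repeated names were dropped.

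Set 2 was tested with edgeR 4.0.16 (TMM, filterByExpr, robust quasi-likelihood) in R 4.3.3, and set 1 with limma 3.58.1 (trend, robust) on log2(TPM + 1), fold changes being on that scale. The threshold was a Benjamini-Hochberg adjusted p under 0.05 over all genes. Alternatives were DESeq2 1.42.0, other scaling, filters and pseudocounts, coding transcripts alone, a Y-chromosome covariate, a replicate block and leaving out each sample. Functions were tested on simulated data. Replicates are mice. Liver and pancreas (or liver and lung) from the same mouse share its number, which pairs them. In set 2 their deviations from group means correlated at -0.005 to 0.28. Liver and pancreas of different mice correlated at -0.2075 to 0.3016, a range that covers these values. Named genes were the members and, in each list, up to 4 genes with the smallest p. The members and lists were chosen with earlier results of these data known. Ggnbp1, Endog and Trp53 were named outside that rule, after their values were seen. Some genes of the lists are not reported here.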

Additional observations from a re-analysis of the deposited data

Results flagged for a closer look

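Bcl2 in mouse 49 stood apart from the other A3B samples in both organs of set 2. It measured 1.45 TPM in liver, where the other 5 A3B livers were between 0.182 and 0.608 TPM, and 3.95 TPM in pancreas, where the other 5 were between 1.06 and 2.03 TPM. Of 20 groups of 6 samples examined in this way these were the 2 that stood out, and chance marks about 1 in 20. T cell markers summed to 11.8 TPM in liver 49 and 127 TPM in pancreas 49, the highest of their groups. B and plasma cell markers summed to 13.4 TPM in liver 49, also the highest, and to 239 TPM in pancreas 49, below the 380 TPM of A3B pancreas 53. Liver 49 also had the highest sums among A3B livers of macrophage (1181 TPM), neutrophil (102 TPM), fibroblast (208 TPM) and adipocyte (89 TPM) markers, and the lowest of hepatocyte markers (33101 TPM). The part of these markers in the Bcl2 values was not tested.

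The A3B effect differed between organs by an interaction test for 4 members. It was greater in pancreas than in liver for Bak1 by 2.46 and for Bcl2l1 by 2.31 on the log2 scale, where 6.87% of all genes were called in that direction. The Bak1 call was lost without control pancreas 45, and the Bcl2l1 call without control liver 45 or control pancreas 168. In set 1 the effect was greater in lung than in liver for Bbc3 by 1.49 (1.94% of all genes), and lower for Bik, with a difference of -1.32 (8.81%).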

How the results depend on the processing

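In the pancreas the 6 members called higher became 3 with protein-coding transcripts only (17.4% of all genes). They were 5 or 6 when 1 A3B pancreas was left out, where 2814 to 3135 of 18751 to 19067 genes were higher. Fewer were called without control 45, which left 1 control. The median log2 fold change of the members was then 1.02, and that of all genes 0.17. The count of members called higher was 9 with total counts alone (70.5% of all genes) and with log2(TPM + 1) (83.9%), and 7 with DESeq2 (17.8%). It was 5 with RLE factors (3036 of 19123 genes) and with the Y-chromosome covariate (2981 of 19123). It was also 5 without A3B pancreases 44 and 137 (2254 of 18916 genes), a choice made after seeing the data. The 2 members with a greater pancreas than liver effect became 7 with total counts alone, where 39.4% of all genes were called, and 1 to 2 when a control was left out. With mouse number as a replicate block, the paired count stayed at 2 here and at 1 higher and 1 lower for lung minus liver. In set 1 livers 1 member (Bbc3) became lower after median-ratio rescaling. Liver set 2 stayed at 0 in all 15 alternatives.

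Signs turned for members that were not called. In set 2 livers Mcl1 gave -0.03 with DESeq2 and -0.02 with RLE factors, Bax 0.35 with total counts alone and 0.11 with log2(TPM + 1), and Bak1 -0.93 with coding transcripts only. In pancreas Bcl2 gave 1.57 with total counts and 0.79 with log2(TPM + 1), and Mcl1 2.03 and 2.13, both called. For pancreas minus liver Bcl2 gave 0.46 and Bik 1.19 with total counts, and Mcl1 -0.06 with DESeq2. For lung Mcl1 gave 0.01 after rescaling, and for lung minus liver Pmaip1 gave -0.01 with a pseudocount of 0.1. The cause was not tested.

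With single samples left out, signs turned within these ranges. In set 2 livers they were -0.20 to 1.08 for Bcl2, -0.15 to 0.14 for Mcl1, -0.04 to 0.26 for Bak1, -0.10 to 0.40 for Bid and -0.04 to 0.97 for Bbc3. In pancreas they were -0.97 to 0.38 for Bcl2 and -0.28 to 0.15 for Mcl1, and for pancreas minus liver -1.47 to 0.04 for Bcl2, -0.19 to 0.29 for Mcl1 and -0.22 to 3.43 for Pmaip1. In set 1 they were -0.71 to 0.28 for liver Bax, -0.14 to 0.01 for lung Mcl1 and -0.30 to 0.09 for lung Bid. Depth limits Pmaip1 most in the pancreas controls (7 counts in control 45), and 2 controls per organ limit all set 2 tests.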
